A study of Homo sapiens with 8 samples.

Results

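The genes described are 9 secreted matrix and matricellular genes of the 52576 in the table: FN1, TGFBI, SPARC, CYR61, CTGF, THBS1, NPNT, LOX and BMP1. They were the rows whose symbol was on a list of secreted matrix and matricellular genes drawn up with earlier results of the same comparison known, CYR61 and CTGF under their older symbols (now CCN1 and CCN2). Poly(A) RNA was sequenced in 8 libraries of NCI-H2009, a long-established line of lung adenocarcinoma cells. Controls included, the cells had all received dCas9-KRAB, in which a Cas9 unable to cut DNA carries a domain that draws repressors to chromatin. There were 2 libraries with e3 guide 1 and 2 with e3 guide 2, both to the enhancer region called e3, 2 with a guide that matches no human sequence (the non-targeting guide) and 2 with no guide RNA. The comparisons ask how RNA levels differ when that enhancer is repressed.

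Fibronectin is a large adhesive glycoprotein that cells assemble into fibrils through integrins, and it serves as a scaffold for collagens and other matrix proteins. Matricellular proteins are secreted into the matrix but regulate how cells adhere, spread and receive growth factor signals more than they bear load. CYR61 and CTGF belong to the CCN family, whose genes are widely used as readouts of the transcriptional coactivators YAP and TAZ acting through TEAD factors, and FN1, TGFBI, CTGF and THBS1 are known as genes that TGF-beta can induce. Lysyl oxidase, from LOX, starts the crosslinking of collagen and elastin, and the protease encoded by BMP1 cleaves procollagens and the lysyl oxidase precursor. In carcinoma cells these genes are commonly read as part of a mesenchymal or wound-like matrix program.

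In the deposited table every gene had a value in RPKM (reads scaled to gene length and library depth) for each library, and the 13979 genes whose mean reached 1 RPKM were tested. The reads behind those genes, inferred from the steps between values, numbered 3847807 to 5711042 per library. Libraries of a group differed from each other with a chi-square per degree of freedom of 1.91 to 2.12, against 3.11 to 19.8 for libraries of different groups. Nothing in the labels tells whether libraries of 1 group came from separate cultures, so the variation within a group could be technical alone. The p-values between the controls and between the guides rest on that variation. In tests of the e3 guides against controls the spread also holds the difference between the guides. With all controls it holds that between the kinds of control too. MYC, the gene this enhancer is known to regulate in such cells, was read at 42.4 and 43.4 RPKM (guide 1) and at 36.3 and 36.2 RPKM (guide 2), against 88.9 and 90.1 RPKM with the non-targeting guide and 74.6 and 72.7 RPKM with no guide. It fell by 1.02 on the log2 scale against all controls (limma, adjusted p = 0.00215). Between the controls MYC was higher with the non-targeting guide than with no guide, by 0.28 (limma, adjusted p = 0.0133). Of 13 markers of lung adenocarcinoma and epithelium 7 reached a mean of 1 RPKM, among them KRT19, EPCAM and NKX2-1, while surfactant genes SFTPA1, SFTPC and SFTPD were listed at 0 throughout. Of 10 fibroblast markers only COL1A1 reached that mean (5.41 RPKM). DCN, LUM, COL3A1, THY1 and POSTN were listed at 0 in every library. The summed level of the 10 fibroblast markers nevertheless moved in the same order as most of the genes described here. It was 6.70 to 7.41 RPKM with guide 1, 6.36 to 7.27 with guide 2, 5.16 to 5.76 with the non-targeting guide and 3.43 to 4.68 with no guide. COL1A1 alone, at 3.18 to 6.68 RPKM, made up most of that sum in every library, so the order is mainly that of 1 gene. The part of these markers in the results was not tested. The summed markers of endothelium (at most 0.503 RPKM) and of leukocytes (at most 0.566 RPKM) were near 0. In bulk RNA, a higher level per cell and a larger share of cells with a high level cannot be told apart.

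Promoter letters were read for the members that have a window in the RefSeq promoter table (build GRCh38.p14), 7 of the 9, of which 4 are shown because each holds a short motif of a factor tied to these genes. A single window was searched per gene, for LOX the most upstream of its 3. The stretch given is the 250 bases before the annotated start, 5' to 3' along the gene. Capitals mark matches on either strand to the TEAD motif GGAATG, or in FN1 to the cyclic AMP response element TGACGTCA. The submitters' processing notes name an older build, and start sites were not measured.
CTGF (chr6:131951373-131951622, minus strand): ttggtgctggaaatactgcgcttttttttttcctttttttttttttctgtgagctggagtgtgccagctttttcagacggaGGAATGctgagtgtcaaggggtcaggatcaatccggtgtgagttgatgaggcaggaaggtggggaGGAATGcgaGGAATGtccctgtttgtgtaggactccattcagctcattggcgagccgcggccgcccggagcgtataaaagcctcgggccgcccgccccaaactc
THBS1 (chr15:39580829-39581078, plus strand): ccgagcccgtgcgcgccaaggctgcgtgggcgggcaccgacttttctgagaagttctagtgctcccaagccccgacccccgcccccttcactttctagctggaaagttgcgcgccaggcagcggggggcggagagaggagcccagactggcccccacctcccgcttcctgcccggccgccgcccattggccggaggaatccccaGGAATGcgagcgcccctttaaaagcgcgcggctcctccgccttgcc
SPARC (chr5:151686916-151687165, minus strand): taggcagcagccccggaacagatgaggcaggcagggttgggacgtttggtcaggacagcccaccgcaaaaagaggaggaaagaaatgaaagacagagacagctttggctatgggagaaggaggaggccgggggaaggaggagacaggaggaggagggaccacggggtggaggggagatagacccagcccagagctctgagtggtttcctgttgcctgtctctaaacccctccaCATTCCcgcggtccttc
FN1 (chr2:215436069-215436318, minus strand): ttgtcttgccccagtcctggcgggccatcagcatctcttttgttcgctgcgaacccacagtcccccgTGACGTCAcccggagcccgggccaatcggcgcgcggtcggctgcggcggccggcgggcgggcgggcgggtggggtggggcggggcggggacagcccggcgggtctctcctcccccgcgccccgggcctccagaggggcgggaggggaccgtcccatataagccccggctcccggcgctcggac

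The CTGF window held 3 TEAD motifs, beginning 169, 104 and 95 bases before the start, and a TATA element (TATAAA, in 10.7% of windows, left in lower case) beginning 32 bases before it. Among all 35116 windows of the same length 11.9% held the TEAD motif and 29 windows (0.0826%) held it at least 3 times. The THBS1 window held it once, 46 bases before the start, and the SPARC window once on the opposite strand, 17 bases before the start. The response element in the FN1 window began 183 bases before the start, and 1.65% of windows held that motif. The windows of TGFBI, NPNT and LOX held neither motif in these letters. In none of the 7 windows searched was there a match to AP-1 (TGANTCA, in 6.57% of windows), to the E-box CACGTG to which MYC can bind (6.34%) or to the CArG box of SRF (1.16%). These are letter matches only, and no binding was measured.

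**Figure D1:**
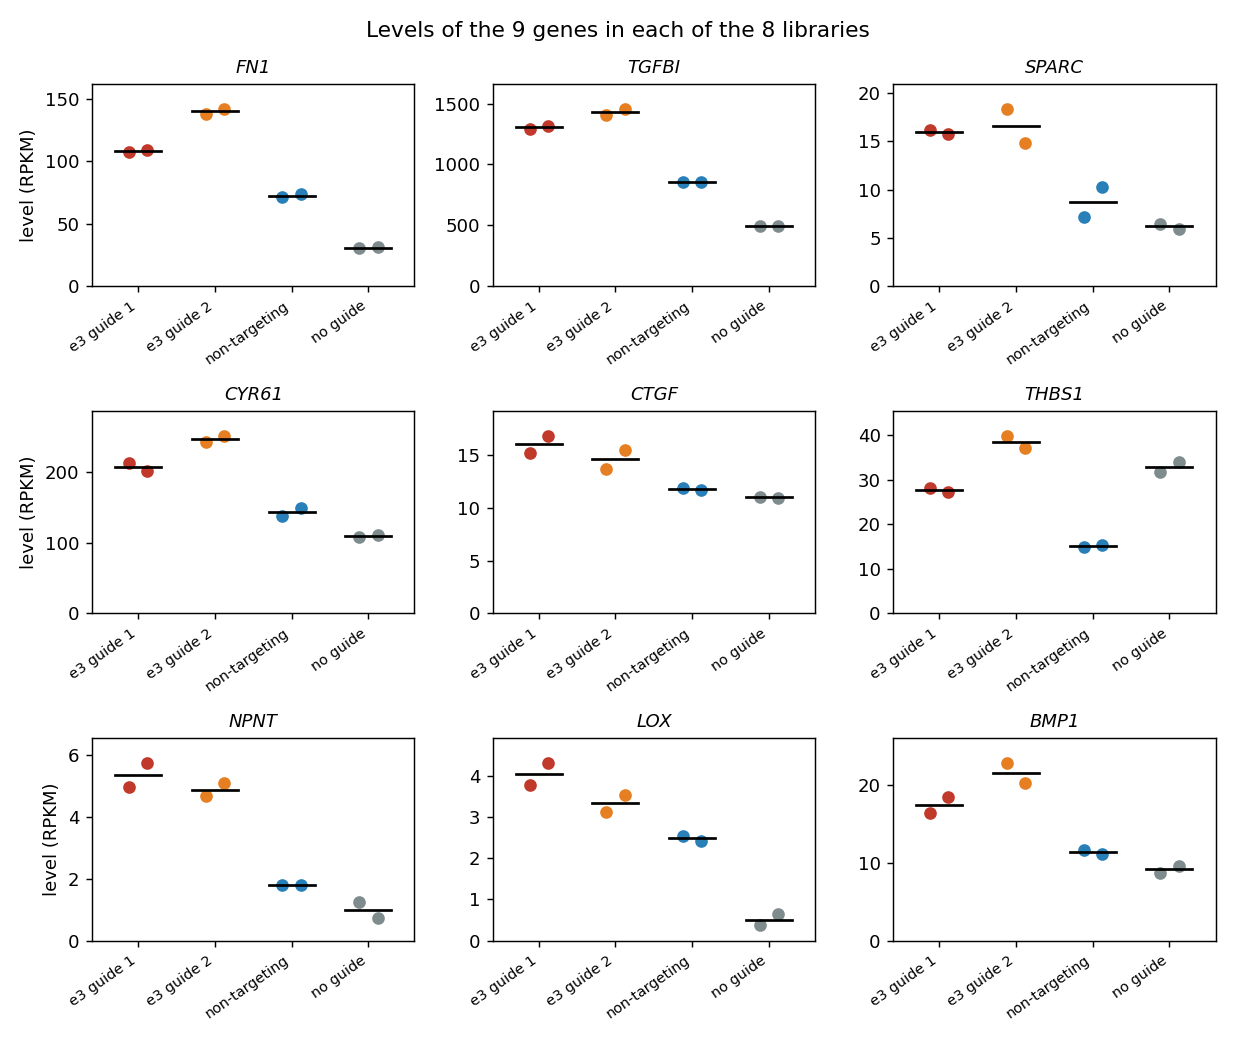
Level in RPKM (vertical axis, linear, from 0) of each of the 9 genes in each of the 8 libraries, by group, with each point a library and each line the mean of the 2 libraries. In 8 panels both e3 guides lie above the non-targeting guide and the non-targeting guide above no guide, whereas THBS1 is lowest with the non-targeting guide, at 14.9 and 15.4 RPKM.

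FN1 (ENSG00000115414.13, chromosome 2), which encodes fibronectin, stood at 107.3 and 108.9 RPKM with guide 1, at 138.3 and 142.1 RPKM with guide 2, against 71.4 and 73.8 RPKM with the non-targeting guide and 30.6 and 31.4 RPKM with no guide. The 4 groups did not overlap, and the gaps between groups exceeded those between libraries of a group. The e3 mean of 124.1 ± 18.6 RPKM (SD, n = 4) was 1.71 times the non-targeting mean and 4.01 times the no-guide mean. Here and below an SD with n = 4 spans 2 guides, or 2 kinds of control, and includes the difference between them. For FN1 the means were 108.1 RPKM with guide 1 (SD 1.12) and 140.2 RPKM with guide 2 (SD 2.69). On the RPKM scale the non-targeting mean lay 44.7% of the way from the no-guide mean to the e3 mean. Between 1210 and 7276 reads lay behind each FN1 value.

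TGFBI (ENSG00000120708.9, chromosome 5), an adhesive matrix protein induced by TGF-beta, was among the most abundant transcripts of these cells, ranking 24 of 13979 by mean RPKM. Its level was 1295 and 1316 RPKM with guide 1, 1408 and 1456 RPKM with guide 2, against 855.0 and 858.0 RPKM with the non-targeting guide and 490.7 and 494.0 RPKM with no guide. Here too the groups did not overlap, and the order was that of FN1. The e3 mean was 1.60 times the non-targeting mean and 2.78 times the no-guide mean, and the non-targeting mean lay 41.6% of the way between no guide and e3.

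NPNT (ENSG00000168743.8, chromosome 4) encodes nephronectin, a matrix ligand of integrin alpha-8 beta-1 in the developing kidney. It was low, at 4.97 and 5.72 RPKM for guide 1, 4.66 and 5.09 RPKM with guide 2, against 1.79 and 1.79 RPKM with the non-targeting guide and 1.25 and 0.715 RPKM with no guide. Every e3 library was above every control library, and the libraries of the e3 guides overlapped each other. The e3 mean was 2.86 times the non-targeting mean, the highest such ratio of the 9 genes. The values rest on 17 to 151 reads.

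SPARC (ENSG00000113140.6, chromosome 5), a collagen-binding matricellular protein, had 16.2 and 15.8 RPKM for guide 1, then 18.3 and 14.8 RPKM with guide 2. It had 7.17 and 10.3 RPKM with the non-targeting guide and 6.48 and 5.89 RPKM with no guide. All e3 libraries lay above all controls, but the guides overlapped each other and the libraries of a group lay further apart than for FN1. The e3 mean was 1.87 times the non-targeting mean and 2.63 times the no-guide mean.

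CYR61 (ENSG00000142871.10, chromosome 1), a secreted integrin ligand of the CCN family, stood at 212.4 and 201.1 RPKM for guide 1, at 242.3 and 250.6 RPKM with guide 2, against 137.7 and 149.5 RPKM with the non-targeting guide and 108.0 and 110.5 RPKM with no guide. Its 4 groups did not overlap. The e3 mean of 226.6 ± 23.6 RPKM (SD, n = 4) was 1.58 times the non-targeting mean. CTGF (ENSG00000118523.5, chromosome 6), of the same family, had 15.2 and 16.8 RPKM for guide 1, 13.7 and 15.5 RPKM with guide 2, against 11.9 and 11.7 RPKM with the non-targeting guide and 11.0 and 10.9 RPKM with no guide. Its ratio of e3 to non-targeting mean (1.30) was the smallest of the 9 genes, and the libraries of the e3 guides overlapped. Per gene length, the CYR61 level was above that of CTGF in every library.

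THBS1 (ENSG00000137801.8, chromosome 15) encodes thrombospondin-1, a matricellular protein that inhibits angiogenesis and can activate latent TGF-beta. It was 28.1 and 27.1 RPKM for guide 1, 39.7 and 37.0 RPKM with guide 2, against 14.9 and 15.4 RPKM with the non-targeting guide and 31.7 and 33.9 RPKM with no guide. All e3 libraries were above the non-targeting libraries, but guide 1 lay below the no-guide libraries and guide 2 above them. The e3 mean was 2.18 times the non-targeting mean and 1.01 times the no-guide mean. In the other 8 genes both non-targeting libraries lay above both no-guide libraries and below every e3 library, an order found in 3.58% of genes tested. That order includes every e3 library above every control, which held for 1060 genes tested, 500 of them with the full order. The genes were picked with the e3 comparison known, so the share of 3.58% is not a test of them.

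LOX (ENSG00000113083.7, chromosome 5) stood at 3.78 and 4.30 RPKM for guide 1, at 3.13 and 3.53 RPKM with guide 2, against 2.54 and 2.42 RPKM with the non-targeting guide and 0.368 and 0.636 RPKM with no guide. The no-guide libraries were far below the rest, and their values rest on 9 and 14 reads. The e3 mean was 1.49 times the non-targeting mean and 7.35 times the no-guide mean, and the non-targeting mean lay 62.1% of the way between no guide and e3, the largest such share of the 8 genes with that order. LOX and NPNT averaged under 1 RPKM with no guide (0.502 and 0.981 RPKM) and passed the filter on the mean of all libraries through the other groups. BMP1 (ENSG00000168487.13, chromosome 8) had 16.4 and 18.5 RPKM for guide 1, 22.9 and 20.4 RPKM with guide 2, against 11.7 and 11.1 RPKM with the non-targeting guide and 8.76 and 9.63 RPKM with no guide. The groups did not overlap, and the e3 mean was 1.71 times the non-targeting mean.

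Set against all 4 controls, the 9 genes had log2 differences of 0.39 (CTGF) to 1.38 (NPNT), with a median of 1.03 beside -0.02 over all genes tested. Here and below log2 differences are those of RPKM + 1, which understates the change of low genes such as LOX and NPNT. The differences were 1.35 ± 0.29 (SE) for FN1, 1.07 ± 0.19 for TGFBI, 1.05 ± 0.15 for SPARC, 0.85 ± 0.12 for CYR61, 0.86 ± 0.12 for BMP1, 1.03 ± 0.31 for LOX, 0.52 ± 0.27 for THBS1, 0.39 ± 0.08 for CTGF and 1.38 ± 0.17 for NPNT. All 4 e3 libraries were above all 4 control libraries for 8 of the 9 genes, which held for 7.58% of genes tested. In limma 7 of the 9 were called higher and none lower, while of all genes tested 5.2% were called, 2.63% higher and 2.58% lower. THBS1 and LOX were not called. The genes were picked with this comparison in view, so neither count is a test of them. The count was 6 with an estimated correlation within groups, CTGF being lost (adjusted p = 0.0906 with an estimated correlation). It was 4 without either library of guide 2 and 0 with group means as samples.

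With the non-targeting guide as the only control the differences of the same genes were smaller, except for THBS1. They were 0.75 ± 0.12 for FN1, 0.67 ± 0.05 for TGFBI, 0.84 ± 0.14 for SPARC, 0.65 ± 0.09 for CYR61, 0.34 ± 0.10 for CTGF, 1.06 ± 0.16 for THBS1, 1.13 ± 0.13 for NPNT, 0.42 ± 0.15 for LOX and 0.72 ± 0.13 for BMP1. Their median was 0.72, beside 0.00 over all genes tested. All e3 libraries were above both non-targeting libraries for all 9 genes, as they were for 16% of genes tested. Limma called 7 of the 9 higher, all but CTGF and LOX, where 6.84% of all genes were called, 3.3% higher and 3.54% lower, again as a description. This count rests on both non-targeting libraries, since it was 0 without the first, where 6 of all genes were called, and 1 without the second, where 17 were.

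**Figure D2:**
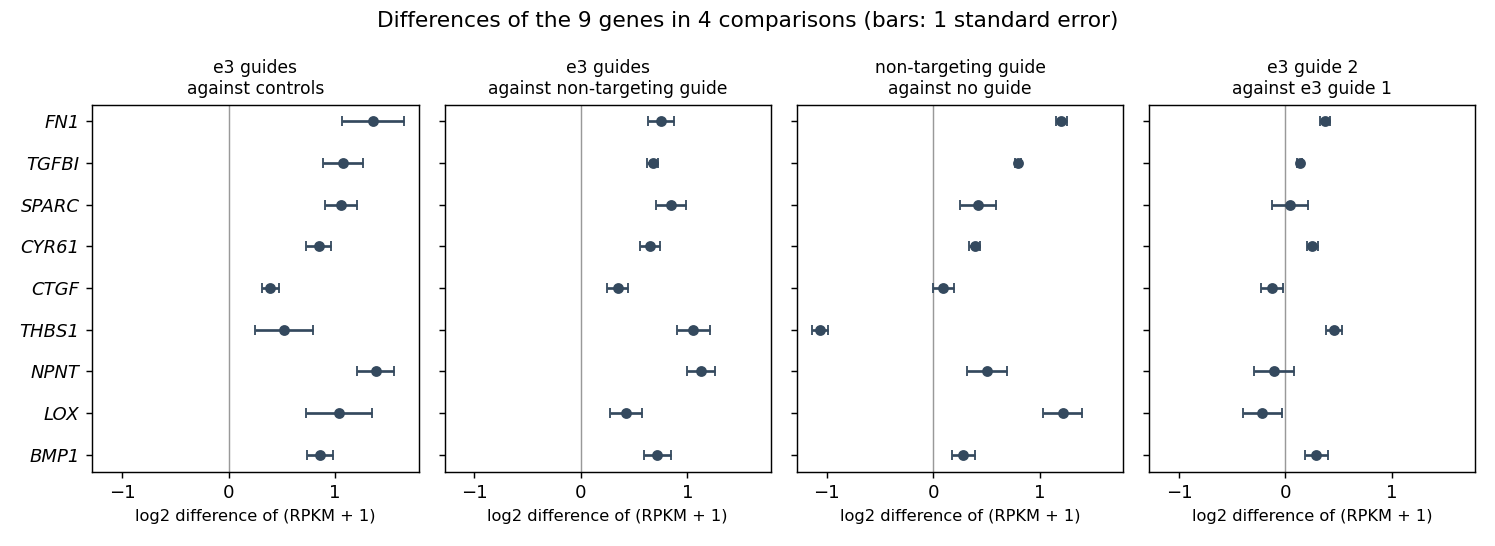
Log2 difference of RPKM + 1 (horizontal axis) of each of the 9 genes in the 4 comparisons, with bars of 1 standard error. Between the controls THBS1 alone of the 9 lies below 0 (-1.07), and the differences between the e3 guides lie between -0.22 and 0.46.

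The controls, whose libraries also entered the comparisons above, were set against each other in a model of all 4 groups. The genes were chosen with earlier results of these data known, so counts here and between the e3 guides are a description. With the non-targeting guide 4 of the 9 genes rose relative to no guide, 1 fell and 4 did not pass, where 12.4% of genes tested passed, 6.55% rising and 5.81% falling (limma, Benjamini-Hochberg adjustment over all genes). FN1 rose by 1.20 ± 0.05 (adjusted p = 8.84e-06), TGFBI by 0.80 ± 0.03 (adjusted p = 2.35e-06), CYR61 by 0.39 ± 0.05 (adjusted p = 0.00310) and LOX by 1.22 ± 0.18 (adjusted p = 0.00465). The LOX call rests on no-guide values of 9 and 14 reads, and LOX passed the filter through groups where it is higher, the non-targeting group among them. Its reads are also uncertain, since LOX overlaps SRFBP1 (mean 8.29 RPKM) on the other strand. THBS1 fell by 1.07 on the log2 scale (SE 0.08, adjusted p = 0.000131), to 15.1 ± 0.29 RPKM with the non-targeting guide, against 32.8 ± 1.60 RPKM with no guide (SD, n = 2 each). SPARC (0.42, adjusted p = 0.155), NPNT (0.51, adjusted p = 0.128), BMP1 (0.28, adjusted p = 0.131) and CTGF (0.09, adjusted p = 0.600) did not pass. Each of the 5 calls held when any 1 library was left out. Neither control carries a guide to e3.

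Between the e3 guides no difference of the 9 genes passed. Guide 2 was higher than guide 1 for 6 of the 9 genes, at log2 differences of 0.37 ± 0.05 for FN1 (adjusted p = 0.0663), 0.46 ± 0.08 for THBS1 (adjusted p = 0.0976), 0.25 ± 0.05 for CYR61 (adjusted p = 0.166), 0.13 ± 0.03 for TGFBI (adjusted p = 0.152), 0.29 ± 0.11 for BMP1 (adjusted p = 0.399) and 0.04 ± 0.17 for SPARC (adjusted p = 0.957). It was lower for LOX (-0.22 ± 0.18, adjusted p = 0.744), CTGF (-0.13 ± 0.10, adjusted p = 0.724) and NPNT (-0.11 ± 0.19, adjusted p = 0.892). In limma 0 of the 9 had an adjusted p under 0.05, while 4 of all genes tested passed (0.0286%), 3 higher (0.0215%) and 1 lower (0.00715%). At an unadjusted p under 0.05 there were 5 of the 9, beside 1451 of the 13979 genes tested. FN1 alone passed with a minimum mean of 5 RPKM (adjusted p = 0.0343) and with quantile normalization (adjusted p = 0.0489). MYC was lower with guide 2 than with guide 1, by a difference that did not pass either (-0.24 ± 0.05, adjusted p = 0.193).

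Among the 8 libraries, 8 of the genes moved closely together and THBS1 apart. Pearson's r of log2(RPKM + 1) over the 8 libraries was 0.99 between FN1 and TGFBI, 0.97 between CYR61 and BMP1 and 0.96 between CTGF and NPNT, and the lowest among those 8 genes was 0.83. THBS1 had r between -0.12 (with LOX) and 0.41 (with BMP1). The libraries form only 4 groups, so these values describe the order of the groups and are not tests. Among the 9034 genes averaging 5 RPKM or more, those most like FN1 were the matricellular gene TNC (r = 0.9997), the microfibril-binding LTBP2 (r = 0.999) and the angiogenic factor gene VEGFA (r = 0.998). TGFBI was most like VEGFA (r = 0.998), MFI2 (r = 0.997) and the actin gene ACTB (r = 0.995). CYR61 was most like the integrin subunit gene ITGB6 (r = 0.99), ARL6IP5 and FAM129A, and BMP1 was most like the endothelin-converting enzyme gene ECE1 (r = 0.99), MYL9 and CD59. For SPARC the nearest were CLCF1, IGFBP4 and PLK2 (r = 0.98 each), for CTGF the cytokine receptor gene OSMR (r = 0.98), RCN1 and PTGFRN, for NPNT ATP6V0D1, the keratin gene KRT6A and RCN1 (r = 0.99 each), and for LOX SIPA1, RAI14 and ATP1B1 (r = 0.99 each). THBS1 was most like TGFB2, which encodes a TGF-beta ligand (r = 0.98), DPY19L4 (r = 0.98) and the retinaldehyde dehydrogenase gene ALDH1A3 (r = 0.98). TGFB2 averaged 16.9 RPKM with the e3 guides, against 7.66 RPKM with the non-targeting guide and 16.1 RPKM with no guide.

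Of 22 other matricellular genes 5 were expressed enough to test. This list and those that follow were drawn up with earlier results of these data known, so their counts are a description. Of all genes tested 2.63% were called higher against all controls, 3.3% against the non-targeting guide and 6.55% with the non-targeting guide relative to no guide. TNC, which encodes tenascin-C, averaged 141.3 ± 14.8 RPKM with the e3 guides and 72.9 ± 26.8 RPKM in the controls (SD, n = 4 each), and rose by 1.01 ± 0.23 (limma, adjusted p = 0.0356). It also rose by 0.55 against the non-targeting guide alone (adjusted p = 0.0170), and with the non-targeting guide relative to no guide by 0.94 (adjusted p = 1.50e-05). FSTL1, a secreted SPARC-like glycoprotein, rose by 0.85 ± 0.14 (adjusted p = 0.0121) and by 0.63 against the non-targeting guide alone (adjusted p = 0.0278). FSTL3 (1.00, adjusted p = 0.10), THBS3 (0.28, adjusted p = 0.267) and the CCN family gene NOV (0.07) did not pass. Over the list the median was 0.85 against all controls and 0.47 against the non-targeting guide. TNC was called against all controls in 2 of the 8 fits that left out a library and FSTL1 in 7.

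Of 23 tested matrix glycoprotein genes 6 rose with the e3 guides and 17 did not pass. EDIL3, a secreted integrin ligand, rose by 1.18 ± 0.07 (adjusted p = 0.000116), at 58.3 ± 1.61 RPKM with the e3 guides and 25.2 ± 1.96 RPKM in the controls (SD, n = 4 each), and by 1.15 against the non-targeting guide alone (adjusted p = 0.00106). MFGE8, which carries an integrin-binding motif too, rose by 0.65 ± 0.08 (adjusted p = 0.00613), and the basement membrane proteoglycan gene AGRN by 0.26 ± 0.05 (adjusted p = 0.0203). LTBP1, a latent TGF-beta binding protein, rose by 0.79 ± 0.18 (adjusted p = 0.0385) but did not pass against the non-targeting guide alone (0.70, adjusted p = 0.110). EDIL3, MFGE8 and AGRN differed little between the controls, at log2 differences of 0.05, -0.05 and 0.03. EDIL3 and MFGE8 were called against all controls in all 8 fits that left out a library, AGRN in 5 and LTBP1 in 2. The median of the list was 0.32 against all controls and 0.30 against the non-targeting guide.

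Of 15 tested genes for crosslinking and procollagen processing 3 rose and 12 did not pass. LOXL2, a lysyl oxidase relative, rose by 0.92 ± 0.17 (adjusted p = 0.0170), at 55.4 ± 3.39 RPKM with the e3 guides and 29.6 ± 8.24 RPKM in the controls (SD, n = 4 each). P4HB, a subunit of prolyl 4-hydroxylase, rose by 0.41 (adjusted p = 0.0201) and the collagen chaperone gene SERPINH1 by 0.44 (adjusted p = 0.0346), while P4HA2 did not pass (1.22, adjusted p = 0.0600). Against the non-targeting guide alone LOXL2 (0.59, adjusted p = 0.00871), P4HB (0.27, adjusted p = 0.0101) and P4HA2 (0.54, adjusted p = 0.0188) rose and SERPINH1 did not pass (0.32, adjusted p = 0.0769). In the comparison of the controls 8 of the 15 rose with the non-targeting guide relative to no guide, P4HA2 by 1.37 (adjusted p = 7.65e-05). The calls against all controls held in 6 of 8 fits that left out a library for LOXL2, in 5 for P4HB and in 1 for SERPINH1. The median of the list was 0.42 against all controls, 0.16 against the non-targeting guide and 0.38 between the controls.

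Of 13 tested receptor genes 6 rose and 7 did not pass, with the integrin subunit genes ITGB6 by 1.77 ± 0.26 (adjusted p = 0.00854), ITGAV by 0.91 ± 0.16 (adjusted p = 0.0152) and ITGB1 by 0.54 ± 0.08 (adjusted p = 0.00730), and the syndecan gene SDC1 by 0.50 ± 0.07 (adjusted p = 0.00753). ITGAV and ITGB6 together form the integrin alpha-v beta-6, a receptor for fibronectin and for latent TGF-beta. The ITGB6 level was 69.2 ± 12.7 RPKM with the e3 guides and 20.6 ± 8.33 RPKM in the controls (SD, n = 4 each). Each of the 4 also rose against the non-targeting guide alone, by 1.27, 0.61, 0.49 and 0.43 in the order named (adjusted p = 0.00682, 0.0184, 0.0187 and 0.0121). ITGB6, ITGB1 and SDC1 were called against all controls in all 8 fits that left out a library and ITGAV in 6. Between the controls ITGB6 and ITGAV rose with the non-targeting guide too, by 1.00 and 0.59 (adjusted p = 0.000319 and 0.000781).

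Genes listed as targets or partners of YAP and TEAD, other than CYR61 and CTGF, had a median near 0. Of 26 tested 1 rose, IGFBP3, by 2.04 ± 0.07 (adjusted p = 2.31e-06), and 25 did not pass, among them FJX1 (-0.45), the receptor kinase gene AXL (-0.34) and TGFB2 (0.55). The list's median was -0.04 against all controls, beside -0.02 for all genes tested. In the comparison of the controls 12 of the 26 were lower with the non-targeting guide than with no guide and 2 were higher, with a median of -0.50. AXL fell by 0.55 on the log2 scale (adjusted p = 0.00367) and TGFB2 fell by 0.98 (adjusted p = 0.000816). Against the non-targeting guide alone 6 of the 26 rose and 1 fell. IGFBP3 (2.02, adjusted p = 3.97e-05) and TGFB2 (1.04, adjusted p = 0.00736) were among the 6, and FJX1 fell (-0.71, adjusted p = 0.0370). The other 4, named after their values were seen, were F3 (0.79), ANKRD1 (1.44), AMOTL2 (0.46) and GADD45B (0.49), and all 4 were lower with the non-targeting guide than with no guide (-1.02, -1.86, -0.86 and -0.88). Both comparisons use the same non-targeting libraries, so genes picked for rising against them are also more likely to be lower there than with no guide. Like THBS1 and unlike CYR61 and CTGF, these 4 genes had their lowest mean level with the non-targeting guide. ANKRD1 averaged 0.322 RPKM with the non-targeting guide, against 2.62 RPKM with the e3 guides and 3.80 RPKM with no guide. It passed the filter through the groups where it is higher, and its differences rest on a value near the floor.

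Of 18 tested genes of the TGF-beta pathway 3 rose and 15 did not pass. PMEPA1, a TGF-beta target that restrains SMAD signalling, rose by 1.71 ± 0.33 (adjusted p = 0.0210), LTBP1 as given above, and the receptor gene TGFBR2 by 0.39 ± 0.09 (adjusted p = 0.0348). PMEPA1 was called against all controls in 6 of the 8 fits that left out a library and TGFBR2 in 2. Against the non-targeting guide alone PMEPA1 rose by 1.10 (adjusted p = 0.0266) and TGFBR2 by 0.45 (adjusted p = 0.0324). Between the controls 4 of the 18 were higher with the non-targeting guide, PMEPA1 by 1.24 (adjusted p = 0.00026), 5 were lower and 9 did not pass, TGFBR2 among them (-0.13, adjusted p = 0.376). The median of the list was 0.26 against all controls and 0.16 against the non-targeting guide.

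Of 14 tested genes of SRF and its cofactor MRTF, which respond to actin assembly, 5 rose and 9 did not pass. The myosin light chain gene MYL9 rose by 1.38 ± 0.16 (adjusted p = 0.00566), the smooth muscle actin-binding gene TAGLN by 1.48 ± 0.28 (adjusted p = 0.0212), the tropomyosin gene TPM1 by 0.78 ± 0.13 (adjusted p = 0.0115) and ACTB by 0.28 ± 0.06 (adjusted p = 0.0276). Against the non-targeting guide alone MYL9 (1.20, adjusted p = 0.0129), TPM1 (0.85, adjusted p = 0.0235) and ACTB (0.19, adjusted p = 0.0161) rose and TAGLN did not pass (1.05, adjusted p = 0.0556). Between the controls 3 of the 14 were higher with the non-targeting guide, 3 were lower and 8 did not pass. TAGLN was higher by 0.85 (adjusted p = 0.0118) and ACTB by 0.18 (adjusted p = 0.00138), while MYL9 (0.38, adjusted p = 0.0990) and TPM1 (-0.13, adjusted p = 0.472) did not pass. MYL9 and TPM1 were called against all controls in all 8 fits that left out a library, TAGLN in 5 and ACTB in 2. Over all 7 lists together, 25 of 111 genes rose against all controls, 14 and 16 without the libraries of guide 1, 8 and 9 without those of guide 2, 16 and 17 without those of no guide, and 1 with group means as samples. Against the non-targeting guide alone 32 rose, and 3 without either non-targeting library.

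**Figure D3:**
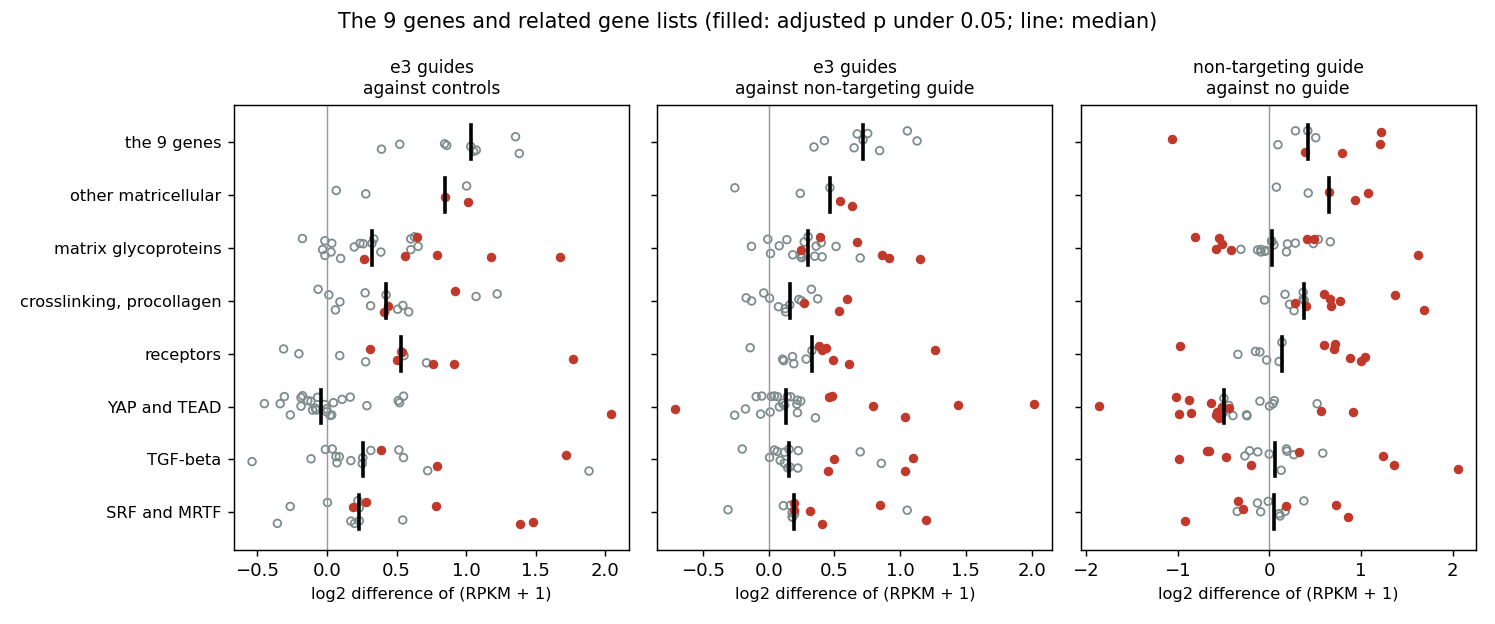
Log2 difference of RPKM + 1 (horizontal axis) of every tested gene of the 9 genes and of 7 related lists, in 3 comparisons, with a line at the median of each list and filled points for genes past an adjusted p of 0.05. The 9 genes carry no call in the e3 panels because they were picked on that comparison, and the YAP and TEAD list has a median of -0.04 against all controls and -0.50 between the controls.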

How the data were processed

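RNA was sequenced from 8 NCI-H2009 libraries after poly(A) selection, per the labels' protocols. The deposited values were RPKM, per the file headers. Per the submitters' processing notes, hg19 was a build used and Cufflinks a tool, with no role stated. The aligner, read counting, strandedness and gene models are not given in the sources used here. Columns were matched to samples by name, that of the non-targeting guide through the series' design text.

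Tests used limma 3.58.1 in R 4.3.3 (moderated test with variance trend, two-sided) on log2(RPKM + 1), for genes whose mean reached 1 RPKM, adjusted by Benjamini-Hochberg over 13979 genes and called at 0.05. The e3 guides against all controls (8 libraries) and against the non-targeting guide (6 libraries) used models of 2 groups. The controls against each other and the guides against each other used 1 model of 4 groups. All 9 members passed the filter. The fit was tested on simulated data. Whole reads were inferred from the value steps in 100% of tested genes, to within 0.03 reads, and served only to judge depth and precision.

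The members, the lists and the tests were chosen with earlier results of these data known. Apart from the members and MYC, up to 4 genes per list were named by smallest p against all controls, further ones where a count was 5 or fewer (NOV), and the 3 genes most correlated with each member. F3, ANKRD1, AMOTL2 and GADD45B were named after their values were seen. A gene named by this rule is not reported here. Alternatives were a pseudocount of 0.1, no filter, a minimum of 5 RPKM on the mean, quantile and median-ratio scaling, leaving out each library, a replicate block, a correlation within groups and group means as samples. By GENCODE 29, LOX overlaps SRFBP1 on the other strand (mean 8.29 RPKM), so without a stated strand setting LOX reads are uncertain. SPARC, CTGF, THBS1, NPNT and BMP1 overlap other annotated genes, those of them in the table under the same name being at most 0.201 RPKM.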

Additional observations from a re-analysis of the deposited data

How the results depend on the processing

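The 5 members called between the controls kept their call under each alternative in which they were tested (LOX is not tested at a minimum mean of 5 RPKM, which leaves 4). Without a filter 406 genes (against 727) were called for the e3 guides against all controls and 379 (against 956) against the non-targeting guide, with 2 members, TGFBI and NPNT, called there. Between the guides, 9 genes were called without a filter, 24 (1 member) at a minimum mean of 5 RPKM and 13 (1 member) with quantile normalization, against 4. Quantile normalization turned the unpassed differences of AXL against the non-targeting guide (0.0028), AGRN (-0.066) and ITGB1 (-0.0015) between the controls and THBS3 (-0.013) between the guides. It had 56.9% of the calls against the non-targeting guide higher, and the main fit 48.2%. The cause of these changes was not tested. Without a filter 24832 genes were tested, and standard errors changed too. That of FN1 against the non-targeting guide was 0.147, beside 0.124 in the main fit. An estimated correlation within groups left 256 genes called against all controls, and group means as samples left 1 gene and 0 members.

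Differences between replicates correlated at -0.02 to 0.01 across groups, so no pairing by the replicate numbers of the titles was seen. Such values over all genes tested cannot show that the libraries were handled apart. With a replicate block 387 genes were called for the e3 guides against all controls, 597 against the non-targeting guide and 1 between the guides. FN1 (adjusted p = 0.0573) and CTGF (adjusted p = 0.0518) were then not called against all controls.

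With 1 library left out, calls ran from 186 to 581 genes and 4 to 7 members against all controls, from 6 to 805 genes and 0 to 7 members against the non-targeting guide, from 870 to 1560 genes between the controls and from 0 to 4 between the guides. Where this leaves a group with 1 library, that library is assumed to vary like the others. Unpassed differences that changed sign ran from -0.11 to 0.19 for SPARC, -0.068 to 0.14 for AXL, -0.13 to 0.31 for FSTL1, -0.024 to 0.037 for IGFBP3, -0.033 to 0.022 for P4HB, -0.026 to 0.17 for SERPINH1 and -0.091 to 0.11 for THBS3 between the guides. Between the controls they ran from -0.026 to 0.080 for AGRN, -0.041 to 0.14 for EDIL3, -0.072 to 0.15 for IGFBP3, -0.015 to 0.39 for LTBP1, -0.15 to 0.057 for MFGE8 and -0.11 to 0.26 for THBS3. Depth limits LOX and NPNT most, with 9 and 17 reads in their lowest libraries.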
